A study of Mus musculus with 16 samples.

Results

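The genes described here encode the protein subunits of oxidative phosphorylation, that is, of respiratory complexes I to IV and of ATP synthase (complex V). They were chosen by symbol alone: rows of the deposited tables beginning with Nduf (letters a, b, c, s or v and a digit), Sdha to Sdhd, Uqcr, Cyc1, Cox4 to Cox8 or Atp5 were taken as nuclear-coded subunits, and rows beginning with mt-Nd, mt-Co, mt-Atp or mt-Cytb as mitochondrial-coded subunits. The rule found 100 of the 22322 genes in the tables. Of these, 87 are nuclear-coded (36 of complex I, 4 of complex II, 9 of complex III, 20 of complex IV and 18 of complex V) and 13 are mitochondrial-coded (7 of complex I, 1 of complex III, 3 of complex IV and 2 of complex V). Ndufa4 and its paralog Ndufa4l2 carry the name of complex I but were counted with complex IV, where Ndufa4 is now placed. A pair of rows share the symbol Atp5o, and the second of them (ENSMUSG00000116933) held no counts in any library.

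The samples came from DIO mice, made obese by diet. They received halofuginone, an inhibitor of prolyl-tRNA synthetase, at 100 μg/kg into the peritoneum every 2 days (labelled H100), or vehicle (taken to be the arm labelled HFD), and tissue was collected after 8 weeks. Poly(A)-selected RNA was sequenced from liver (5 vehicle and 5 halofuginone libraries) and from white adipose tissue (3 and 3). Depot, sex, age and strain are not in the labels, and neither is which libraries share an animal, so p-values measure the spread between libraries.

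Complexes I and II pass electrons from NADH and succinate to ubiquinone, complex III passes them on to cytochrome c and complex IV to oxygen. Complexes I, III and IV move protons across the inner mitochondrial membrane, and ATP synthase uses the gradient to make ATP. All of them but complex II are assembled from proteins of both genomes, so each needs transcripts from the nucleus and transcripts made inside the mitochondrion from the mitochondrial DNA. Hepatocytes are rich in mitochondria, whereas white adipocytes hold few and brown adipocytes many.

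Library totals were 20309956 to 31980683 counts in liver and 17070614 to 21387799 in fat. Of the liver libraries, halofuginone replicate 1 stood apart: on the first principal component (56.2% of the variance) it scored −23.3, next to the vehicle libraries (−36.0 to −28.3) and away from halofuginone replicates 2 to 5 (32.4 to 58). Results in liver are therefore given with and without it. Of 10 adipocyte markers, Adipoq, Lep, Plin1 and Retn were at or under 3 counts in every liver library. Others were present in liver (summed level 142 to 223 CPM in vehicle and 67.3 to 159.9 CPM under halofuginone). Of the 5 that could be tested 2 were called lower (10.5% of all genes were): Fabp4 (−1.63) and Cfd. Levels of Cfd were 8.01 to 30.5 CPM in vehicle and no more than 0.0745 CPM under halofuginone. The summed level of 8 hepatocyte markers was 124302 to 137844 CPM (counts scaled to library size with TMM factors) in vehicle liver and 45942 to 116107 CPM under halofuginone, with 2 of the 8 called lower (10.5% of all genes were), and 5 lower and 1 higher without replicate 1 (21.6% and 21.2%). Most of the sum was Alb (means 94109 CPM in vehicle and 51757 CPM under halofuginone), which was not called with all libraries. Log2 fold changes in the list ran from −1.17 (Ttr) to 0.57 (Fgb), with Serpina1a at −0.17 and Cps1 at −0.04. Of 7 stellate cell and fibroblast markers 3 were called lower (Col1a1, Col3a1 and Pdgfrb), and of 5 endothelial markers 2 lower and 1 higher. Of all genes, 10.5% were called lower and 12.7% higher. Halofuginone replicate 1 had the highest summed level of 8 lymphocyte markers, 10.3 CPM, where the other liver libraries had 1.23 to 3.68 CPM. It was also highest for 8 macrophage markers, with 842 CPM, where the others had 428 to 629 CPM. Of 8 brown and beige fat markers 3 could be tested in liver, Cidea, Elovl3 and Ppargc1a. All 3 were called lower (10.5% of all genes were). The summed level of the 8 was 78.6 to 140.4 CPM in vehicle and 22.0 to 67.8 CPM under halofuginone. Ucp1, Cox8b and Otop1 were at or under 3 counts in every liver library, and Ucp1 had no counts there. Cox7a1 and Dio2 were at or below 0.419 CPM in every liver library. Ppargc1a is also among the regulators counted below. In fat, 10 adipocyte markers summed to 19994 to 30899 CPM in vehicle and 25019 to 31105 CPM under halofuginone. The part of these markers in the results below was not tested, and in bulk tissue fewer cells of a type and less RNA per cell cannot be told apart.

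Measured per length in vehicle tissue (FPKM, fragments scaled to gene length and library size), the mitochondrial-coded transcripts were far more abundant than the nuclear-coded ones. Their median was 5471 FPKM in liver and 2233 FPKM in fat, and mt-Co1, the catalytic subunit of complex IV, led with 20388 and 10993 FPKM. The nuclear-coded subunits that reached 1 FPKM (79 of the 87 in liver and 83 in fat) had a median of 74.8 FPKM in liver and 77.0 FPKM in fat, and Atp5b, the catalytic subunit of the ATP synthase head, was the most abundant of them with 502 and 648 FPKM. By complex, the medians of the same genes in vehicle liver were 46.9 FPKM for complex I, 109.7 FPKM for complex II, 104.5 FPKM for complex III, 128.3 FPKM for complex IV and 118.6 FPKM for complex V. In both tissues complex I was the lowest of the 5. The genes below 1 FPKM were the second Atp5o row and isoforms of complex IV, 7 in liver and 3 in fat.

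The first comparison asked how the subunit transcripts differed between halofuginone and vehicle in liver. Nuclear-coded subunits of all 5 complexes were lower under halofuginone: 42 of the 79 tested fell and 0 rose (edgeR's quasi-likelihood test, adjusted p under 0.05), while 10.5% of all 12311 genes tested fell and 12.7% rose. At an unadjusted p under 0.05 edgeR gave 58 lower and 2 higher (18% and 21.1% of all genes), and DESeq2 called 50 lower and 1 higher, Cox7a2l (14.2% and 15.4% of all genes). The median log2 fold change of the 79 was −0.37, or 22.4% lower, with a middle range of −0.49 to −0.21, and 74 of the 79 values were below 0. The median over all genes was 0.02. The 13 mitochondrial-coded transcripts had a median of −0.45, or 26.6% lower, all 13 values were below 0 (12 with scaling by library size alone, where mt-Nd5 was at 0.02), and 4 were called lower. Another 8 nuclear-coded genes had too few counts in liver for the test (Cox4i2, Cox6a2, Cox6b2, Cox7a1, Cox7b2, Cox8b, Cox8c and the second Atp5o row).

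By complex, the share of tested genes that fell was 18 of 36 in complex I (median log2 fold change −0.33), 3 of 4 in complex II (−0.51), 4 of 9 in complex III (−0.32), 8 of 13 in complex IV (−0.49) and 9 of 17 in complex V (−0.38). The mitochondrial-coded members of the same complexes had medians of −0.45 (complex I), −0.42 (complex III), −0.43 (complex IV) and −0.50 (complex V). Differences between complexes and between the genomes were not tested. Beside the calls, 25 of the 79 nuclear-coded genes and 4 of the 13 mitochondrial-coded ones were lower in every halofuginone library than in any vehicle library, against 6.55% of all genes. In the opposite direction only Cox7a2l separated the groups, against 5.13% of all genes.

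**Figure D1:**
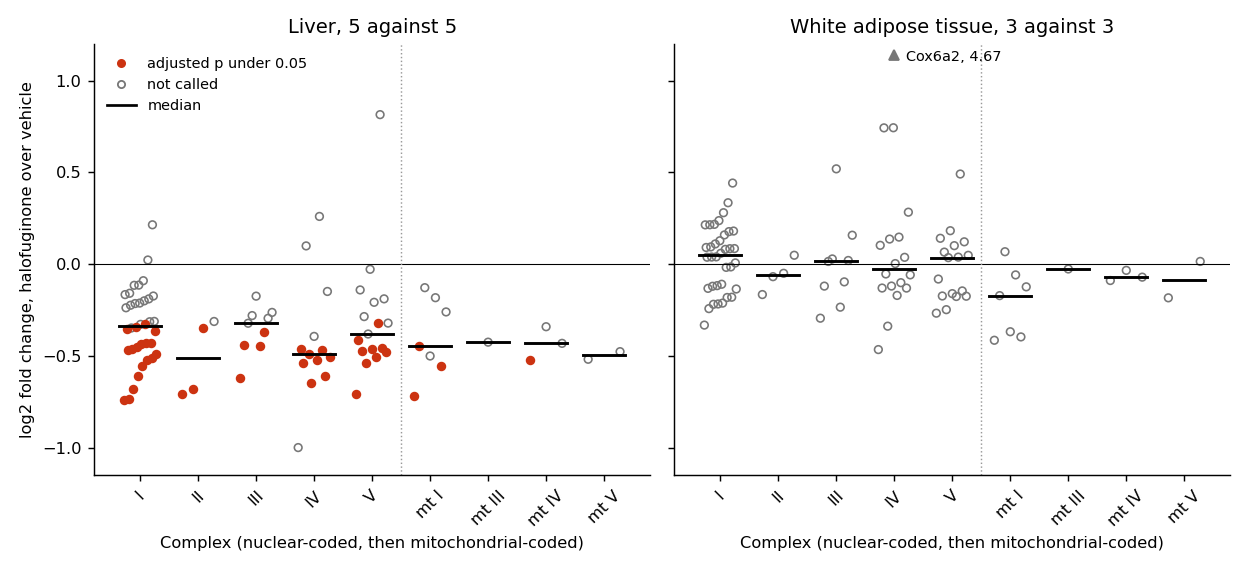
log2 fold change of each tested subunit transcript (halofuginone over vehicle, edgeR) in liver and white adipose tissue, by complex and by the genome that codes for it; filled points were called, bars are medians, and Cox6a2 in fat (4.67) lies above the axis and is drawn as a triangle. In liver the medians of all 9 sets lie between −0.51 and −0.32, and in fat no point is filled.

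Promoter letters were not used in the choice of members. RefSeq promoter windows (250 bases before to 50 after the start, build GRCm38.p6) were found for 66 of the 86 nuclear-coded symbols. The binding motif of nuclear respiratory factor 1, read as GCGCA, any base and GCGC, is a known feature of respiratory genes. It was found for 17 of the 66 (25.8%) and for 5.19% of all 27025 genes with a window. The motif of ETS factors such as GABP, CCGGAAG, was in 24.2% and 9.93%, that of YY1, AAGATGGCG, in 10.6% and 1.64%, that of the oestrogen-related receptors, TCAAGGTCA, in 3.03% and 0.466%, and that of ATF4, TGATGNAA, in 0 of the 66 and in 4.51%. Both strands were searched, and no motif contains another. A gene counted once for each motif if any of its windows had a match, so genes with several windows had more chances. Within the set, 33 genes with a window fell in liver and 29 were tested and not called. The motif of nuclear respiratory factor 1 was found for 10 of the 33 and 7 of the 29, and the ETS motif for 9 of the 33 and 7 of the 29. A match is a description of the letters and not a bound site.

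The windows printed here belong to 4 members that fell, picked because they hold a match, and show how the motifs are placed. They are no sample of the members that fell: 10 of the 33 had the motif of nuclear respiratory factor 1, and so did 7 of the 29 not called. Capitals mark the motif of nuclear respiratory factor 1 and, in Sdhd only, the ETS motif CTTCCGG as read on this strand. Each sequence is written 5′ to 3′ on the strand of the gene, which is the minus strand for all 4.
Sdha, chr13:74350241-74350340, 100 to 1 bases before the start: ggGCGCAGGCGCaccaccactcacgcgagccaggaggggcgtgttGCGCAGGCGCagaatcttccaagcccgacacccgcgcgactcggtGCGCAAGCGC
Sdhd, chr9:50603875-50603934, 85 to 26 bases before the start: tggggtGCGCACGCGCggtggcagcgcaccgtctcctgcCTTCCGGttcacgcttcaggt
Atp5k, chr5:108434420-108434469, 70 to 21 bases before the start: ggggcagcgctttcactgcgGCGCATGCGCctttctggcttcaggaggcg
Ndufs5, chr4:123718247-123718296, 110 to 61 bases before the start: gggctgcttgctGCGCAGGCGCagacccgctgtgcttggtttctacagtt
Sdha has the motif 3 times within its 100 bases, and Sdhd has both motifs.

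Complex I oxidises NADH. Its 7 nuclear-coded core subunits carry the flavin and iron-sulfur clusters, and its other 29 nuclear-coded subunits surround them. Of the core subunits 5 fell (median −0.37) and of the accessory subunits 13 fell (median −0.33). Ndufs1, the largest core subunit and the holder of several iron-sulfur clusters, stood at 106, 113, 104, 118 and 115 CPM in vehicle replicates 1 to 5 and at 96.0, 73.5, 82.4, 89.2 and 90.0 CPM in halofuginone replicates 1 to 5. No halofuginone library reached the lowest vehicle library, and the log2 fold change was −0.37 (SE 0.09, edgeR adjusted p 0.021). Ndufs7, which carries the last cluster of the chain, was the only core subunit with a value above 0: its log2 fold change was 0.21 (SE 0.13, edgeR adjusted p 0.232).

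Among accessory subunits, Ndufb1-ps (ENSMUSG00000113902) and Ndufa3 (ENSMUSG00000035674), small proteins of the membrane arm, changed most. Ndufb1-ps was at 9.98, 11.2, 9.97, 11.5 and 10.9 CPM in vehicle and at 8.84, 5.44, 5.65, 6.44 and 5.81 CPM under halofuginone. Ndufa3 was at 16.1, 17.3, 13.5, 17.4 and 17.9 CPM in vehicle and 13.1, 8.87, 9.37, 9.18 and 8.93 CPM under halofuginone. In both genes all 5 halofuginone libraries lay below every vehicle library, and replicate 1 was the highest of the 5. The log2 fold changes were −0.74 (SE 0.14, edgeR adjusted p 0.00768) for Ndufb1-ps and −0.73 (SE 0.13, edgeR adjusted p 0.00633) for Ndufa3.

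Ndufb9 (ENSMUSG00000022354), another membrane arm subunit, showed how far replicate 1 could differ from the rest. Vehicle libraries held 77.0, 83.2, 79.6, 88.8 and 82.5 CPM and halofuginone libraries 83.9, 34.4, 37.9, 54.9 and 45.7 CPM. Replicate 1 lay inside the vehicle range, while replicates 2 to 5 all lay below it. Its log2 fold change was −0.68 (SE 0.21, edgeR adjusted p 0.0378), and −0.95 without replicate 1. The remaining called accessory subunits had log2 fold changes between −0.61 (Ndufs5) and −0.33 (Ndufa13).

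Complex II, succinate dehydrogenase, belongs to the citric acid cycle as well as to the respiratory chain and has no mitochondrial-coded subunit. Sdha (ENSMUSG00000021577), the flavoprotein that oxidises succinate, was at 426, 499, 439, 494 and 478 CPM in vehicle and 359.8, 241, 247, 301 and 280.4 CPM under halofuginone. The groups did not overlap, and the log2 fold change was −0.71 (SE 0.13, edgeR adjusted p 0.00768). Sdhd (ENSMUSG00000000171), a membrane anchor, was at 141, 149, 124, 167 and 154 CPM in vehicle and 137, 73.9, 74.1, 94.3 and 80.7 CPM under halofuginone. Here replicate 1 again lay inside the vehicle range, and the log2 fold change was −0.68 (SE 0.17, edgeR adjusted p 0.0202). The other anchor, Sdhc, fell as well (−0.35), and the iron-sulfur subunit Sdhb did not pass the test (−0.31, edgeR adjusted p 0.177).

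In complex III, the subunits that carry electrons did not pass the test. Cyc1 (cytochrome c1) was at 96.7, 117, 96.1, 111 and 103 CPM in vehicle and 108, 72.1, 82.6, 112 and 89.8 CPM under halofuginone, so that the groups overlapped, and its log2 fold change was −0.17 (SE 0.13, edgeR adjusted p 0.337). The log2 fold change of Uqcrfs1, the Rieske iron-sulfur protein, was −0.28 (SE 0.11, edgeR adjusted p 0.0915). The 4 that fell were the small subunits Uqcr11, Uqcr10 and Uqcrb and the core protein Uqcrc1 (−0.37). Uqcr11 (ENSMUSG00000020163) changed most, from 30.2, 40.5, 29.1, 36.9 and 38.4 CPM in vehicle to 30.8, 17.2, 18, 26 and 22.0 CPM under halofuginone. Its replicate 1 was inside the vehicle range, and the log2 fold change was −0.62 (SE 0.17, edgeR adjusted p 0.0248).

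In complex IV, cytochrome c oxidase, the nuclear-coded subunits surround a catalytic core that is wholly mitochondrial-coded. Cox7b (ENSMUSG00000031231) changed most among those called: vehicle libraries held 76.6, 86.5, 78.7, 79.1 and 82.8 CPM and halofuginone libraries 79.9, 40.3, 40.4, 48.5 and 48.6 CPM. Replicate 1 alone stood among the vehicle values, and the log2 fold change was −0.65 (SE 0.17, edgeR adjusted p 0.0238), or −0.88 without it. Cox6b1, Cox6a1, Cox8a, Ndufa4, Cox5b, Cox7c and Cox6c also fell, by 0.46 to 0.61 on the log2 scale. Cox4i1, the largest nuclear-coded subunit and the regulatory one that binds ATP, did not: it was at 208, 239, 229, 246 and 235 CPM in vehicle and 234, 175, 188, 245 and 203 CPM under halofuginone, and its log2 fold change was −0.15 (SE 0.12, edgeR adjusted p 0.367). Cox5a, which sits beside Cox4i1, had −0.39 (edgeR adjusted p 0.0835), and −0.56 without replicate 1.

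In complex V the catalytic head and the membrane ring were both touched in part. Of the 5 subunits of the head, Atp5d (−0.54) and Atp5a1 (−0.48) fell. Atp5b was at 949.7, 1072, 961, 1079.9 and 1007 CPM in vehicle and 957, 725, 805, 1052 and 909 CPM under halofuginone, overlapping, and its log2 fold change was −0.19 (SE 0.13, edgeR adjusted p 0.316). The proton-carrying c-ring is made from 3 genes that code for the same mature protein: Atp5g3 fell by 0.50 on the log2 scale and Atp5g1 by 0.32, and Atp5g2 had −0.03 (edgeR adjusted p 0.865; 0.12 with scaling by library size alone). Coding sequences of Atp5g1 and Atp5g2 were 76.7% identical over their aligned bases and shared no run longer than 21 bases. The largest fall was in Atp5k (ENSMUSG00000050856), a small subunit that helps hold ATP synthase dimers, from 10.6, 14.5, 10.3, 12.2 and 12.2 CPM in vehicle to 11.1, 5.70, 5.51, 8.33 and 6.07 CPM under halofuginone. Replicate 1 was again inside the vehicle range, and the log2 fold change was −0.71 (SE 0.20, edgeR adjusted p 0.0266). Atpif1, the inhibitor protein of ATP synthase and no member by symbol, had a log2 fold change of −0.30 (edgeR adjusted p 0.105).

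Only 5 of the 79 nuclear-coded subunits had a log2 fold change above 0 in liver (10 with scaling by library size alone): Ndufs4, Ndufs7, Cox7a2, Cox7a2l and Atp5s. Ndufs4, an accessory subunit of the NADH-oxidising arm, was at 0.02 on the log2 scale. Cox7a2l (ENSMUSG00000024248), a relative of Cox7a2 that links complexes III and IV into supercomplexes, was at 65.5, 74.5, 62.1, 75.7 and 69.6 CPM in vehicle and 76.6, 79.4, 90.1, 87.3 and 82.7 CPM under halofuginone. All 5 halofuginone libraries were above the vehicle libraries, and the log2 fold change was 0.26 (SE 0.09, edgeR adjusted p 0.0521), just short of the threshold; adjusted p values under the other settings ran from 0.0202 to 0.126. Cox7a2, the liver isoform of its family, was at 0.10 (edgeR adjusted p 0.476). Atp5s, a coupling factor that is not part of the ATP synthase structure, was at 3.25, 3.00, 2.80, 2.76 and 2.82 CPM in vehicle and 1.29, 6.74, 6.54, 5.40 and 5.62 CPM under halofuginone. Replicate 1 was below all vehicle libraries and replicates 2 to 5 were above all of them, and the log2 fold change was 0.82 (SE 0.33, edgeR adjusted p 0.0894). Without replicate 1 it was 1.03 and Atp5s was called higher, as were Cox7a2l and Cox6a2 (the latter kept by the filter only through the halofuginone libraries).

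Halofuginone replicate 1 moved the results for the whole set. For 37 of the 79 nuclear-coded genes it lay inside the range of the vehicle libraries, for 37 it lay below and for 5 above, and for 48 it was higher than all other halofuginone libraries. The median log2 ratio of the nuclear-coded subunits to their vehicle mean was −0.121 in replicate 1, and −0.660, −0.493, −0.247 and −0.376 in replicates 2 to 5, while the vehicle libraries ran from −0.108 to 0.0972. Without replicate 1, 57 of 80 nuclear-coded genes fell and 3 rose (background 21.6% and 21.2%), the median log2 fold change was −0.44, and 49 of 79 separated the groups downwards (background 16.1%). By complex, 24 of 36, 3 of 4, 8 of 9, 9 of 14 and 13 of 17 then fell in complexes I to V.

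The count of 42 was also sensitive to other libraries. It was 11 without halofuginone replicate 3, 15 without replicate 5 and 26 without replicate 2, and 16, 19 and 18 without vehicle replicates 2, 4 and 5. In every one of these fits the median log2 fold change of the nuclear-coded subunits stayed below 0, between −0.37 and −0.32. Shares of all genes called were not taken in these fits. The counts therefore cannot show whether the members alone or all genes lost calls. Scaling by library size alone moved the median over all genes in liver by 0.16 and gave 20 genes lower and 2 higher, Cox7a2l and Atp5s (6.82% and 22.6% of all genes), and medians of −0.21 (nuclear-coded) and −0.30 (mitochondrial-coded), but the nuclear-coded median relative to that of all genes was −0.39, compared with −0.38 under TMM scaling.

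**Figure D2:**
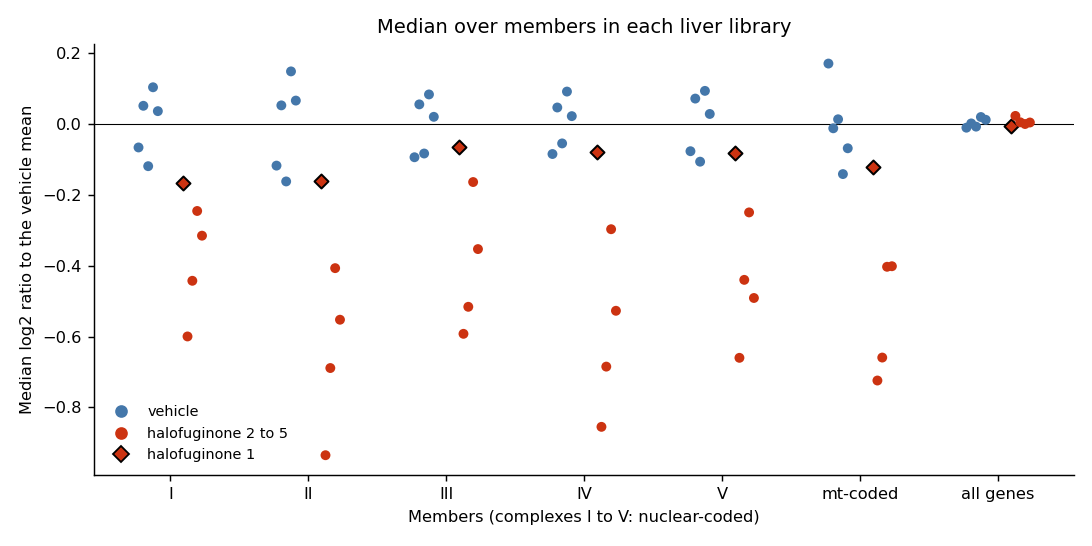
Median log2 ratio to the vehicle mean over the nuclear-coded subunits of complexes I to V, over the mitochondrial-coded subunits and over all genes tested, 1 point per liver library. Halofuginone replicates 2 to 5 lie below the vehicle libraries in each set of subunits, halofuginone replicate 1 lies at or near the vehicle range, and the medians over all genes lie between −0.0106 and 0.0227 in every library.

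The mitochondrial DNA codes for 13 of the proteins, and its transcripts come from long precursors that are cut into single messages. mt-Nd2, a membrane subunit of complex I, had the largest log2 fold change: vehicle livers held 8314, 7325, 7801, 6469 and 7161 CPM and halofuginone livers 7018, 3585, 3278, 4255 and 4428 CPM. Replicate 1 lay inside the vehicle range and replicates 2 to 5 at 4428 CPM or less, and the log2 fold change of mt-Nd2 was −0.72 (SE 0.22, edgeR adjusted p 0.0388). mt-Co2, the subunit of complex IV that receives electrons from cytochrome c, held 8691, 7495, 8242, 7267 and 7559 CPM in vehicle and 6705, 4529.9, 4644, 5615 and 5838 CPM under halofuginone. The groups did not overlap, and the log2 fold change was −0.52 (SE 0.17, edgeR adjusted p 0.0469). mt-Nd3 fell by 0.45 on the log2 scale without overlap, from 583 ± 31.4 CPM to 428 ± 62.4 CPM (SD, n = 5 libraries each; edgeR adjusted p 0.0277), and mt-Nd4l fell by 0.56.

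The 9 others did not pass the test. mt-Cytb (−0.42) and mt-Co3 (−0.43) were lower in every halofuginone library than in any vehicle library, but their adjusted p values were 0.0953 and 0.0953 (edgeR). mt-Co1 held 34106, 35982, 33376, 32207 and 30594 CPM in vehicle and 26963, 22531, 21024, 31652 and 29139 CPM under halofuginone. Its groups overlapped through halofuginone replicate 4, and its log2 fold change was −0.34 (SE 0.21, edgeR adjusted p 0.241). mt-Nd1, mt-Nd6 and mt-Nd5 had the smallest values (−0.26, −0.18 and −0.13), and mt-Nd4, mt-Atp6 and mt-Atp8 had −0.50, −0.52 and −0.48. mt-Nd6 is coded on the strand opposite to the others and overlaps a neighbour, and mt-Atp8 with mt-Atp6 and mt-Nd4l with mt-Nd4 share a message, so counts of these genes may have been divided by rules that the sources used here do not give.

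Without halofuginone replicate 1, 9 of the 13 fell, against 21.6% of all genes, and the median was −0.55 (mt-Nd2 −0.95). The count of 4 rests on more than that library: it was 0 without halofuginone replicate 3 or 5 or vehicle replicate 1 or 2, 1 without halofuginone replicate 2 or 4 or vehicle replicate 3 or 5, and 2 without vehicle replicate 4. Shares of all genes called in these other fits were not taken. At an unadjusted p under 0.05 (edgeR), 9 of the 13 were lower, against 18% of all genes tested. DESeq2 called 10 of the 13 lower, against 14.2% of all genes.

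**Figure D3:**
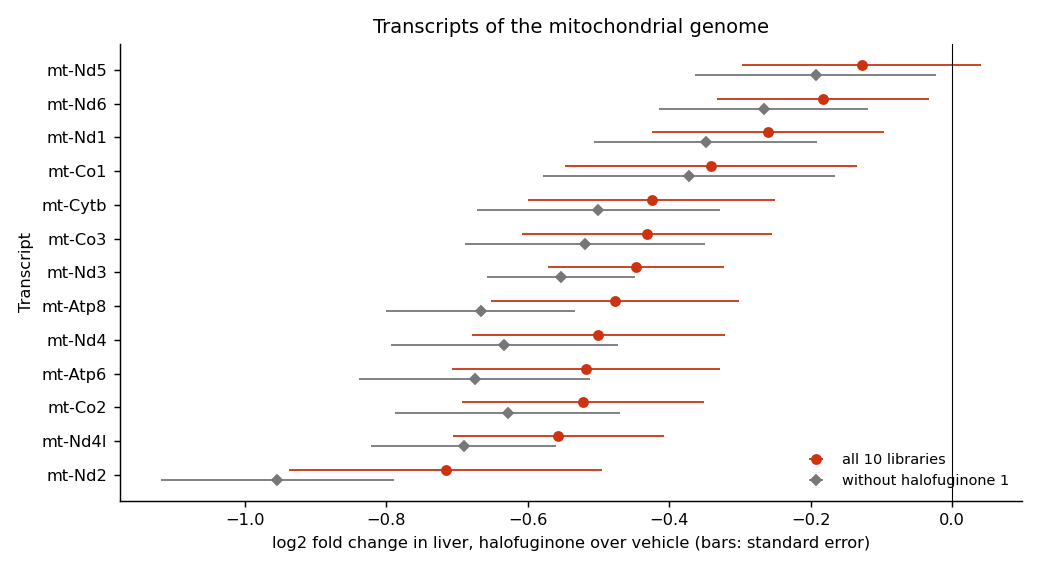
log2 fold change in liver (halofuginone over vehicle, edgeR) of the 13 mitochondrial-coded transcripts with standard errors, fitted with all 10 libraries and without halofuginone replicate 1. With TMM scaling all values are below 0, from −0.72 for mt-Nd2 to −0.13 for mt-Nd5 (0.02 with scaling by library size alone), and every one is lower without replicate 1.

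As a share of all counts in a library, the mitochondrial-coded subunits made up 9.68, 8.75, 8.83, 8.65 and 8.26% in vehicle livers and 8.11, 6.45, 6.88, 7.62 and 7.79% in halofuginone livers. Every halofuginone library, replicate 1 included, was below every vehicle library, and the means were 8.83 ± 0.52% and 7.37 ± 0.685% (SD, n = 5 each), described here with no test because the share is a sum over the members. Nuclear-coded subunits together made up 0.749, 0.803, 0.720, 0.890 and 0.817% in vehicle and 0.761, 0.577, 0.697, 0.732 and 0.672% under halofuginone. Here the groups overlapped, through replicates 1 and 4. The number of mitochondrial-coded counts per nuclear-coded count was 9.72 to 12.9 in vehicle and 9.87 to 11.6 under halofuginone, so the balance between the genomes did not separate the groups.

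**Figure D4:**
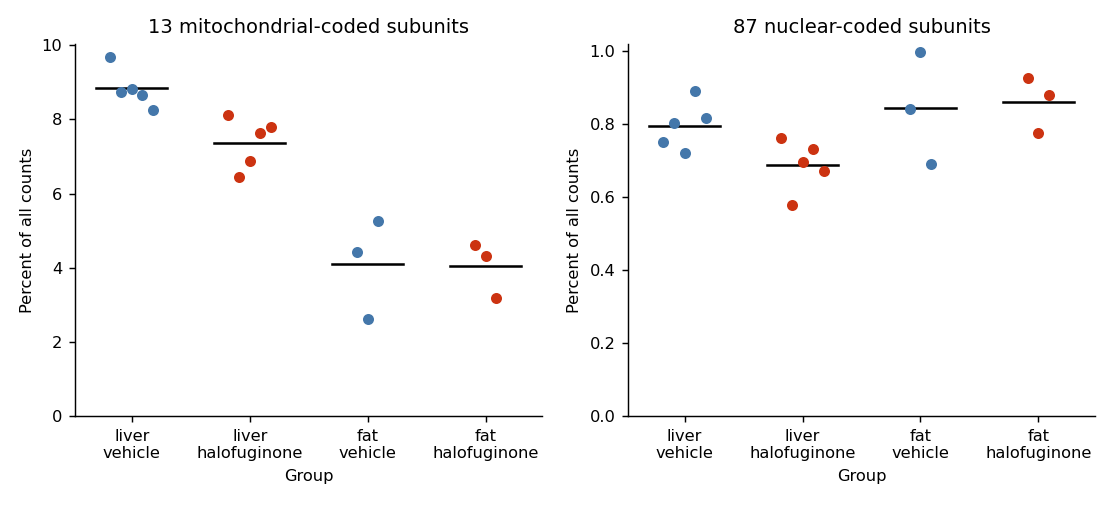
Percent of all counts on the 13 mitochondrial-coded and on the 87 nuclear-coded subunits in each of the 16 libraries; bars are group means. The mitochondrial-coded share in liver is 8.26 to 9.68% in vehicle and 6.45 to 8.11% under halofuginone, and in fat the ranges of the arms overlap for both sets.

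Cox6a2 (ENSMUSG00000030785), the isoform of complex IV subunit VIa that is known from heart and skeletal muscle, had values in the opposite direction from its ubiquitous partner Cox6a1 (ENSMUSG00000041697). In liver Cox6a2 had 2, 0, 2, 0 and 0 counts in vehicle replicates 1 to 5 and 1, 71, 95, 41 and 40 counts in halofuginone replicates 1 to 5, or 0.0497, 2.65, 3.40, 1.58 and 1.49 CPM under halofuginone. Replicates 2 to 5 stood far above the vehicle libraries and replicate 1 among them. The ratio of summed counts, scaled by library size, was 60.2 (exact 95% interval 23.2 to 222.7, which covers counting error only), and 71.2 (27.4 to 263.3) without replicate 1. With so few counts in 6 of 10 libraries the gene did not pass the filter of the liver fit. Other fits tested it with no filter or kept it through the halofuginone libraries in which it was high, so their calls are no support and its level is given here as a description.

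Over the same libraries Cox6a1 was at 148, 153, 147, 161 and 158 CPM in vehicle and 139, 76.5, 92.3, 114 and 106 CPM under halofuginone. No halofuginone library reached the vehicle range, and the log2 fold change was −0.54 (SE 0.14, edgeR adjusted p 0.0233). Cox6a2 remained a small part of the pair: under halofuginone replicates 2 to 5 had 3.46, 3.68, 1.39 and 1.4 counts of Cox6a2 per 100 of Cox6a1.

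White adipose tissue showed the same direction for Cox6a2, with 3, 6 and 3 counts in vehicle and 114, 169 and 71 under halofuginone, or 0.18, 0.333 and 0.173 CPM and 6.45, 7.85 and 3.73 CPM. Every halofuginone library was above every vehicle library, by a ratio of 26.4 (exact 95% interval 14.9 to 51.5). The log2 fold change was 4.67 (SE 0.50, edgeR adjusted p 0.0954), which did not pass the threshold. Over the other settings its adjusted p ran from 2.49e-11 to 0.431. In fat the gene passed the filter only through the halofuginone libraries, so these tests are no independent support. Skeletal muscle markers were near 0 in liver, where 9 of 11 were at or under 3 counts in every library. Their sum in liver was 0.229 to 0.652 CPM in vehicle and 0.558 to 0.794 CPM under halofuginone. In fat their sum was 99.8 to 180.3 CPM in vehicle and 57.5 to 66.6 CPM under halofuginone. Most of the sum in fat was Acta1 (means 118 CPM in vehicle and 48.8 CPM under halofuginone). Each other muscle marker had a mean of 2.33 CPM or less in both arms of fat, some higher and some lower under halofuginone. The part of muscle cells in the Cox6a2 values was not tested.

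**Figure D5:**
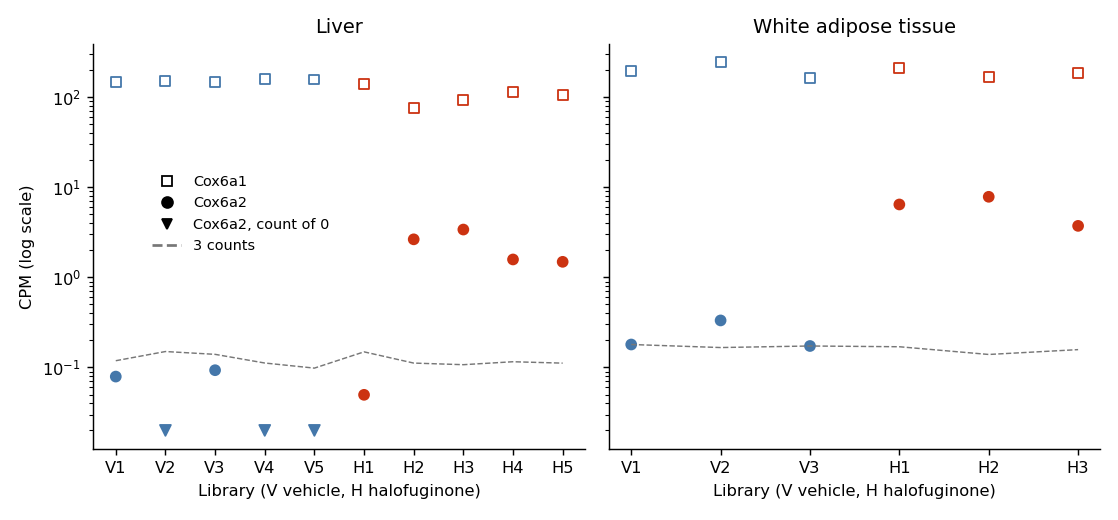
CPM (log scale) of Cox6a1 (squares) and Cox6a2 (circles, or triangles at the bottom where the count was 0) in each library, with the level of 3 counts as a dashed line. Cox6a2 is at 1.49 to 3.40 CPM in halofuginone livers 2 to 5 and at 3.73 to 7.85 CPM in halofuginone fat, and near or under the line elsewhere.

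The last 200 coding bases of both isoforms (GENCODE M21) are shown because reads can be assigned to Cox6a2 only where the pair differ. Capitals mark the longest run that they share, 12 bases.
Cox6a1: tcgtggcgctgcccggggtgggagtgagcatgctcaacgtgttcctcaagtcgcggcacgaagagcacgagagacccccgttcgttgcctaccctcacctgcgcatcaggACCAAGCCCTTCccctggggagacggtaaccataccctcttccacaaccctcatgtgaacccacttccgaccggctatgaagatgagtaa
Cox6a2: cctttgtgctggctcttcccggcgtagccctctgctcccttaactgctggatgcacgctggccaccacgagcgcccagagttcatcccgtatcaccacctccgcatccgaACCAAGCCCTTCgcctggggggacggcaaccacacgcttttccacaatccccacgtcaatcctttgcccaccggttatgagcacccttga
The whole coding sequences aligned over 290 paired bases, of which 193 (66.6%) were identical, and the whole transcripts shared no run longer than 12 bases.

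The other tissue-restricted isoforms gave no such pattern. Ndufa4l2, a paralog of Ndufa4, was at 0.713, 0.551, 1.54, 1.72 and 0.590 CPM in vehicle livers and 0.397, 0.373, 0.393, 0.964 and 0.409 CPM under halofuginone, and its log2 fold change of −1.0 had an SE of 0.42 (edgeR adjusted p 0.101). Cox4i2, Cox6b2, Cox7a1 and Cox8b were at or below 0.419 CPM in every liver library. Cox7b2 and Cox8c, known from testis, had no counts in liver.

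In white adipose tissue the same comparison was made. None of the 84 nuclear-coded and 13 mitochondrial-coded subunits tested was called, and nor was any of the 14030 genes tested (0% of genes in either direction). The nuclear-coded median was 0.02 on the log2 scale, with 38 values below and 46 above 0, and the mitochondrial-coded median was −0.09, compared with 0.01 over all genes. By complex the nuclear-coded medians lay between −0.06 (complex II) and 0.05 (complex I). At an unadjusted p under 0.05, 0 nuclear-coded subunits were lower (background 7.91%) and 3 were higher (background 5.49%), namely Cox6a2, Uqcrq and Ndufa3. DESeq2 called 0 lower and 2 higher, Cox6a2 and Uqcrq (3.48% and 1.67% of all genes).

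Uqcrq (ENSMUSG00000044894), a small subunit of complex III, was at 76.0, 87.1 and 67.4 CPM in vehicle fat and 118, 108 and 104 CPM under halofuginone. The groups did not overlap, and the log2 fold change was 0.52 (SE 0.15, edgeR adjusted p 0.253). Its adjusted p under the other settings ran from 0.0263 (DESeq2) to 0.585. Ndufa3 was at 15.7, 19.1 and 13.7 CPM in vehicle and 21.8, 23.8 and 20.2 CPM under halofuginone. Here too the groups were apart, and its log2 fold change was 0.44 (SE 0.18, edgeR adjusted p 0.35). Cox5a also separated the groups upwards (0.28, edgeR adjusted p 0.421) and Sdhd downwards (−0.17, edgeR adjusted p 0.633). In all, 4 of the 84 nuclear-coded genes (Cox6a2 included) separated the groups upwards and 1 downwards, against 10.2% and 10.4% of all genes. Ndufa6, Atp5s, Atp5c1 and Uqcrc1 came next in order of p, with log2 fold changes of 0.34, 0.49, −0.25 and −0.29 and overlapping groups.

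None of the subunits that were named as core by rule passed the test in fat. Cox4i1 and Cox5a stood for complex IV in that rule, and Cox5a is given above. For the others, log2 fold changes were −0.22 for Ndufs1, −0.07 for Sdha, −0.23 for Uqcrfs1, 0.02 for Cyc1, 0.15 for Cox4i1 and −0.08 for Atp5b. Their SEs were 0.16 to 0.23 and their edgeR adjusted p values 0.602 or more. Cox7a1 and Cox8b, isoforms of muscle and brown fat, were at 1.2, 1.61 and 0.634 CPM and 1.62, 1.77 and 1.1 CPM in vehicle and at 3.79, 0.743 and 1.26 CPM and 6.17, 0.604 and 0.788 CPM under halofuginone. The high value in each belonged to halofuginone replicate 1, in which 8 brown and beige fat markers summed to 111.1 CPM, while the other 5 fat libraries were at 8.46 to 19.4 CPM. Both isoforms are themselves in that list of markers. Macrophage markers had lower values in fat under halofuginone (summed level 4257 to 9804 CPM in vehicle and 2894 to 3237 CPM under halofuginone). All 7 tested were lower at an unadjusted p under 0.05 (edgeR), against 7.91% of all genes, but none was called. Their part in the subunit values was not tested.

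Mitochondrial-coded transcripts varied more between fat libraries of one arm than between the arms. Their share of counts was 4.42, 2.63 and 5.27% in vehicle fat and 4.60, 4.31 and 3.20% under halofuginone. Vehicle replicates 2 and 3 marked the lowest and the highest of the 6 libraries. Nuclear-coded shares ran the other way in those libraries, with 0.840, 0.998 and 0.692% in vehicle and 0.925, 0.776 and 0.879% under halofuginone. mt-Nd2 was at 1898, 1007 and 2868 CPM in vehicle and 1732, 1532 and 1211 CPM under halofuginone, and its log2 fold change was −0.37 (SE 0.38, edgeR adjusted p 0.73). With SEs of 0.30 to 0.51 for the 13, a change as small as the liver medians was not detectable in these 6 libraries.

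The third comparison asked whether the drug effect differed between the tissues, as the effect in fat minus the effect in liver in 1 fit of all 16 libraries. The nuclear-coded median of this difference was 0.35 on the log2 scale, with 77 of 84 values above 0, and the mitochondrial-coded median was 0.34, compared with −0.04 over all genes. The mitochondrial-coded median rested on single fat libraries: it was 0.05 without fat vehicle replicate 2 (9 of 13 values above 0), 0.63 without fat vehicle replicate 3 and 0.21 without fat halofuginone replicate 1. Only Ndufa3 was called (0.417% of all genes were called in this direction): its difference was 1.15 (SE 0.22, edgeR adjusted p 0.0279), from −0.73 in liver and 0.44 in fat. The adjusted p of Ndufa3 ran from 0.000295 to 0.0736 over the other settings. It was 0.0514 to 0.0658 when liver vehicle replicate 2 or 4, liver halofuginone replicate 3 or 5, or fat vehicle replicate 1 or 3 or fat halofuginone replicate 1 or 2 was left out.

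Uqcrq had the next smallest p, with a difference of 0.82 (edgeR adjusted p 0.0561). Without liver halofuginone replicate 1, 15 nuclear-coded subunits had a called difference towards fat (2.94% of all genes), among them Ndufa3, Uqcrq, Ndufb1-ps, Sdhd, Cox7b and Cox6b1, and without fat vehicle replicate 2 there were 3. At an unadjusted p under 0.05, 26 of 84 had a more positive effect in fat, against 6.91% of all genes. That count was 40 without fat vehicle replicate 2, 11 without fat halofuginone replicate 1, 12 without fat vehicle replicate 3, and 15 to 17 without fat vehicle replicate 1, liver vehicle replicate 5 or liver halofuginone replicate 2, 3 or 5. In the opposite direction 1 of the 84 had an unadjusted p under 0.05 (edgeR), Cox7a2l with a difference of −0.41. Shares of all genes were not taken for that direction, for these counts or for the 3 called without fat vehicle replicate 2. By size alone, Cox7a1, Cox8b, Cox4i2 and Cox6b2 had differences of 2.46, 2.33, 1.4 and −1.12, but with SEs of 1.1 to 2.1, and liver held almost no counts of them.

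Lists of other genes that serve the respiratory chain were counted in the same liver fit, in which 10.5% of all genes fell and 12.7% rose. Of 48 assembly factors tested 8 fell and 1 rose (median −0.07), led by Cox19 (−1.08), which serves complex IV, and Coa6 (−0.52), with Sdhaf1 (0.58) the one that rose. Of 78 mitochondrial ribosomal proteins 5 fell and 10 rose (median 0.04). Of 22 genes for upkeep and transcription of mitochondrial DNA 1 fell (Mgme1) and 3 rose, among them Polrmt, the mitochondrial RNA polymerase (0.30), and Ssbp1, which coats single-stranded mitochondrial DNA (0.53), while Tfam, which packages the DNA, had 0.03 (edgeR adjusted p 0.861). Cytochrome c (Cycs), the carrier between complexes III and IV, had −0.05 (edgeR adjusted p 0.663).

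Of 18 genes of the citric acid cycle and pyruvate dehydrogenase 7 fell and 0 rose (median −0.31), Dlst (−0.54) and Suclg2 (−0.42) having the smallest p. Of 11 mitochondrial chaperones and proteases 2 fell (Spg7 and Trap1) and 4 rose, led by the protease Lonp1 (1.44, SE 0.29) and the chaperone Hspa9 (1.00, SE 0.23). Of 14 regulators known to act on nuclear-coded subunit genes, Ppargc1a, a coactivator of mitochondrial biogenesis, fell from 5.34 ± 0.975 to 2.85 ± 1.65 CPM (SD, n = 5 libraries each; log2 fold change −0.92, edgeR adjusted p 0.0492), whereas Nrf1 rose by 0.49 and Gabpa by 0.42. Esrra (−0.25), Ppargc1b (−0.11) and Yy1 (−0.03) did not pass the test. Without halofuginone replicate 1 (21.6% of all genes lower and 21.2% higher), 12 assembly factors fell and 6 rose, 10 and 19 of the ribosomal proteins, 1 and 4 of the genes for mitochondrial DNA, 12 and 0 of the citric acid cycle list, 3 and 5 of the chaperones and proteases and 2 and 2 of the regulators. In fat edgeR called no gene in these 6 lists, and their medians were −0.14 for the citric acid cycle and between 0.11 and 0.34 for the other lists.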

How the data were processed

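The authors deposited 1 table per tissue with, for each gene, counts and FPKM values (fragments scaled to gene length and library size) per library. Per the submitters' processing notes, which give no roles or order, fastp 0.18.0, Bowtie2 2.2.8, HISAT2, StringTie 1.3.1 and RSEM were used with build mm39. Per the labels' protocols, poly(A) RNA was captured with oligo(dT), and mitochondrial-coded messages have short tails, so their level against nuclear-coded ones depends on capture. The strand of counting and the handling of reads with several matches are not given in the sources used here, so values of paralogs and of overlapping mitochondrial genes are less certain.

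Groups were taken from the sample titles. The deposited counts were whole numbers and were used as they stand. Genes were kept by filterByExpr, libraries scaled by TMM, and arms compared with edgeR 4.0.16 (R 4.3.3; quasi-likelihood test, Benjamini-Hochberg adjustment over all genes kept), each tissue apart, and all 16 libraries in 1 fit for the difference between tissues, which takes libraries as independent. Calls were made at 0.05 on the adjusted p. limma 3.58.1 on log2(FPKM + 1) and DESeq2 1.42.0 served as alternatives, beside other scalings, filters, each library left out and a block for the replicate number. The deposited FPKM values, normalised by the authors for length and depth, were used for levels between genes. The fits were checked on simulated counts. No 2 libraries of a group agreed within sampling noise (26 pairs, chi-square per degree of freedom at least 29.7). Same-numbered libraries did not deviate together, so numbers were not taken as pairs.

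Named by rule were the 8 largest called changes in liver (at least 5 CPM in the higher group), the 8 smallest p in fat, the 5 largest differences between tissues, core subunits, isoform families, all mitochondrial-coded members and, per list, the 2 smallest p in each direction. Other members named (such as Ndufs7, Sdhc, Atp5d or Ndufs4) were chosen after their values were seen. The members and lists were chosen with earlier results of these data known. All intervals cover counting error only. Sequences come from RefSeq (GRCm38.p6) and GENCODE M21, another build than that of the counts, and were used only for promoters and for comparing coding sequences. Protein sequences were not used here.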

Additional observations from a re-analysis of the deposited data

Results flagged for a closer look

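In 5 of 94 groups of 5 liver values, 1 library lay far from the other 4 by Dixon's criterion at 95%, where chance gives about 4.7. In halofuginone replicate 1, Ndufa3 stood at 13.1 CPM (next library 9.37 CPM), Cox7b at 79.9 CPM (next 48.6 CPM) and Atp5s at 1.29 CPM (next 5.40 CPM). Each of these lay towards or past the vehicle values. In halofuginone replicate 4, Ndufa4l2 stood at 0.964 CPM (next 0.409 CPM). In vehicle replicate 1, mt-Nd1 stood at 6873 CPM (next 5423 CPM).

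The effect of halofuginone on Ndufa3 differed between the tissues by 1.15 on the log2 scale (fat minus liver, edgeR's interaction test).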

How the results depend on the processing

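The nuclear-coded and mitochondrial-coded medians in liver stayed below 0 under every setting tried: the nuclear-coded median was −0.44 to −0.32 when single libraries were left out, and the mitochondrial-coded median −0.55 to −0.39. Both were smaller in size by library size alone (−0.21 and −0.30) and with limma on FPKM (−0.21 to −0.22, and −0.30). The number of nuclear-coded subunits lower in liver (42) was 20 with scaling by library size alone and 20 and 20 with limma on log2(FPKM + 1) and log2(FPKM + 0.1), 38 to 50 under the other scalings, filters and tests with liver alone, 32 in 1 fit of all 4 groups and 11 to 57 without single libraries. For this and the other numbers that changed, the cause was not tested, and shares of all genes were taken only for settings where they are given above. The number higher (0) was 2 by library size alone, 1 with no filter, DESeq2, newer quasi-likelihood handling, 1 fit of all 4 groups or either limma fit, and 0 to 3 without single libraries. Mitochondrial-coded subunits lower in liver (4) numbered 2 by library size alone, newer quasi-likelihood handling and both limma fits, 10 with DESeq2, 0 in 1 fit of all 4 groups, and 0 to 9 without single libraries. In fat, DESeq2 called 2 nuclear-coded subunits higher, and 1 fit of all 4 groups and limma on log2(FPKM + 1) called 1. The difference between tissues gave 4 subunits with DESeq2, 2 with newer quasi-likelihood handling and 0 to 15 without single libraries. By summed FPKM, the mitochondrial-coded share in liver fell by 2.61 percentage points and by counts it fell by 1.46.

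A block for the replicate number gave 29 nuclear-coded and 1 mitochondrial-coded subunits lower in liver, none in fat and 0 for the difference between tissues, and put Cox8b at −0.0246, mt-Nd6 at 0.0228 and mt-Cytb at 0.0377 in fat. Deviations of same-numbered libraries correlated at −0.16 to 0.06 in liver and at 0.11, −0.57 and −0.12 in fat, and not every library correlated best with its own number.

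Signs that turned belonged to values that were not called, and some of these were as large as the liver medians (in fat, Cox7a1 0.74, Cox8b 0.74, mt-Nd5 −0.40 and mt-Nd2 −0.37 on the log2 scale). In liver, Atp5g2 was at 0.12, 0.12 and 0.12 and mt-Nd5 at 0.0207, 0.0298 and 0.0298 by library size alone and the limma fits (pseudocount 1, then 0.1). In fat the same 3 settings gave Cox7a2 0.0085, 0.0122 and 0.0123, mt-Nd6 0.0197, 0.0805 and 0.0806, mt-Cytb 0.0508, 0.1032 and 0.1033, mt-Co2 0.0072, 0.0607 and 0.0607, and mt-Co3 0.0376, 0.0044 and 0.0044, and the limma fits gave mt-Nd4 0.0453 and 0.0454 and mt-Co1 0.0144 and 0.0144. With 1 fit of all 4 groups Cyc1 was at −0.0061 and Cox6b1 at −0.0155, and with at least 1 CPM Cox6b1 was at −0.0026. Without single libraries, Atp5g2 in liver ran from −0.0911 to 0.0326. In fat the lowest and highest values were −0.24 and 0.0911 for Atp5b, −0.25 and 0.0243 for Atp5g3, −0.66 and 0.37 for Cox4i2, −0.23 and 0.0602 for Cox6a1, −0.0758 and 0.0948 for Cox6b1, −0.19 and 1.17 for Cox7a1, −0.12 and 0.0119 for Cox7a2, −0.0258 and 0.26 for Cox8a, −1.1 and 1.25 for Cox8b, −0.15 and 0.20 for Cyc1 and −0.20 and 0.10 for Sdha. For the mitochondrial-coded genes in fat they were −0.26 and 0.39 (mt-Atp6), −0.45 and 0.20 (mt-Atp8), −0.32 and 0.0596 (mt-Co1), −0.33 and 0.28 (mt-Co2), −0.24 and 0.25 (mt-Co3), −0.31 and 0.27 (mt-Cytb), −0.46 and 0.21 (mt-Nd1), −0.67 and 0.0391 (mt-Nd2), −0.27 and 0.43 (mt-Nd3), −0.41 and 0.28 (mt-Nd4), −0.70 and 0.0718 (mt-Nd5) and −0.29 and 0.36 (mt-Nd6). In fat the sign of each of these values turned with 1 library.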
